A study of Mus musculus with 77 samples.

Results

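Copying the genome in S phase requires a set of proteins that license origins, start and run replication forks and supply nucleotides, and 39 genes that encode such proteins are described here. They were listed by name and function, and each symbol was matched through its Ensembl identifier to a row of a table of 46078 genes, where all 39 were found. All 39 also passed the filter on low counts at both time points. The genes fall into licensing and helicase loading (10 genes), helicase activation (6), the sliding clamp and its loader (5), polymerases and primase (8), strand processing and single-strand binding (4), nucleotide supply (5) and replication-coupled DNA methylation (1).

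The RNA came from pancreatic ductal organoids of C57BL/6 mice, which are 3-dimensional cultures of duct cells that keep dividing, and each library was made from a pool of 50 sorted cells. The organoids had received a lentiviral Tet-on system, whose transgene is switched on by an inducer, carrying GFP alone, GFP joined to wild-type (WT) Ngn3, or GFP joined to 6S-A Ngn3, a phosphomutant in which the serines of the serine-proline sites are replaced by alanine. Ngn3 (gene symbol Neurog3) is the transcription factor that starts endocrine differentiation in the pancreas, and the study asked whether its phosphorylation limits that activity. After 2 days of induction the groups were GFP only, WT Ngn3 and 6S-A Ngn3, all from passage 2, with 3 replicates of 6 pools each. After 8 days they were WT Ngn3, 6S-A Ngn3 and 2 controls that the sample names tie to the WT and the 6S-A cultures, with 3 replicates each, of which replicate 3 came from passage 5 and the others from passage 2. The 8-day control columns are headed no color, and the labels do not say how those cells were sorted. GFP-only cells at 8 days and no-color cells at 2 days were not analysed here, so the day and the kind of control cannot be told apart. Every group is thus a lentiviral culture of cells selected by sorting, not tissue, and the labels do not say whether replicates came from separate animals or cultures, so p-values measure the spread between these samples only.

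Replication begins when the origin recognition complex, Cdc6 and Cdt1 load the MCM helicase onto origins in G1, and Cdc45, the GINS complex and Mcm10 then turn the loaded helicase on. At the fork, primase and DNA polymerase alpha lay down primers, replication factor C loads the PCNA clamp, polymerases delta and epsilon extend the strands, and Fen1 and Lig1 join the Okazaki fragments while RPA covers single-stranded DNA. Most of these genes are transcribed in late G1 and S phase under E2F factors, which are held back by the Rb family in cells that leave the cycle, and endocrine differentiation in the pancreas is known to go with such an exit.

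RefSeq promoter windows on GRCm38.p6, 250 bases before to 50 bases after a start site, were found for 32 of the 39 genes. An E2F word, defined as TTTCCCGC, TTTCGCGC, TTTGCCGC or TTTGGCGC on either strand, lay in a window of 14 of the 32 genes, and in 2.60% of all 27025 genes with a window. The CCAAT box (CCAAT, either strand) lay in 20 of 32, against 41.1% of all genes, and the CHR word TTTGAA, either strand, in 5 of 32, against 20.2%. No window was given for Mcm4, Gins1, Gins2, Gins4, Rfc2, Prim2 and Pole. A set of 6 windows with an E2F word is printed 5' to 3' on the gene's own strand, with the word in capitals, because it pairs genes that were lower in the cells with Ngn3 (Cdc6, Mcm3, Pola1 and Pold1) with genes that did not pass the test there (Mcm7 and Rfc3).
Cdc6 (chr11:98907901-98908200, plus strand): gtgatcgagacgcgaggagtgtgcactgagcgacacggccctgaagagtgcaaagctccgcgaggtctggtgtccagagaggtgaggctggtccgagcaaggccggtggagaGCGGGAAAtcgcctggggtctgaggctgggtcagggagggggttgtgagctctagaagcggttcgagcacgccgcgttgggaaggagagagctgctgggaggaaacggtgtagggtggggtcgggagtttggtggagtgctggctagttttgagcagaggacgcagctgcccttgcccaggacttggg
Mcm3 (chr1:20820263-20820562, minus strand): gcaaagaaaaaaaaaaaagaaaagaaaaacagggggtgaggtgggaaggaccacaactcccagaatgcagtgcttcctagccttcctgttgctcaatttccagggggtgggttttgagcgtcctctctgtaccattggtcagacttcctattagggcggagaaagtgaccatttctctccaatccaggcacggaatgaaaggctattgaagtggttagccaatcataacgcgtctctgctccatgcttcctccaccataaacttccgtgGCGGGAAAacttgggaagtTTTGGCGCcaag
Pola1 (chrX:93632106-93632405, minus strand): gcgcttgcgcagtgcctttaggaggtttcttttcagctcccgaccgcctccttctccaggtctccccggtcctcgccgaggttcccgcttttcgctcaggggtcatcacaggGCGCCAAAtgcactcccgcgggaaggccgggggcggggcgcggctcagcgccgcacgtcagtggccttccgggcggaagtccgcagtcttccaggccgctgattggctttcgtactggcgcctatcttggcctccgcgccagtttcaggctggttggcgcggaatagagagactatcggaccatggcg
Pold1 (chr7:44548766-44549065, minus strand): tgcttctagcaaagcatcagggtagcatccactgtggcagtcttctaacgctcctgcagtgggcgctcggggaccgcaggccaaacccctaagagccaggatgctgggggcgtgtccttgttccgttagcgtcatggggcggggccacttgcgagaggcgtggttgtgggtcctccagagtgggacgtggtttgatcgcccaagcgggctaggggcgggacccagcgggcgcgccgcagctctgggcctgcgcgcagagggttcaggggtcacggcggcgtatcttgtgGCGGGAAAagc
Mcm7 (chr5:138171834-138172133, minus strand): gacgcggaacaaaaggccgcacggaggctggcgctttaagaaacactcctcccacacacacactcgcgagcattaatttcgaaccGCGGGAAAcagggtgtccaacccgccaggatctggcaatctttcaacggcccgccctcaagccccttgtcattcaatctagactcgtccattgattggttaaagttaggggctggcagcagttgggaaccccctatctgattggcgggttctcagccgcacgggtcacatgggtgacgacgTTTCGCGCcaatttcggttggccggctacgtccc
Rfc3 (chr5:151651159-151651458, minus strand): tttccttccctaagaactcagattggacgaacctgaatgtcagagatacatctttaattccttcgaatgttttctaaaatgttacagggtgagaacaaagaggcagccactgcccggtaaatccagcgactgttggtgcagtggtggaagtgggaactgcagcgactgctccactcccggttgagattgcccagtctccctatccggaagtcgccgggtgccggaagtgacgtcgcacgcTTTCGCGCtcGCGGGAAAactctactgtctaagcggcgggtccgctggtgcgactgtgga
The words stand in promoters of both kinds. A match describes letters and does not show that a factor binds.

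Reads on genes per replicate, with technical repeats summed, ran from 17754209 to 26624325 at 2 days and from 2396221 to 17914799 at 8 days, so counting error was larger for low genes at 8 days. Neurog3 itself, the induced gene, had 220.0, 95.5 and 113 CPM (read counts scaled to 1000000 per library) with WT Ngn3 and 212, 123 and 107 CPM with 6S-A Ngn3 at 2 days, against 0.0770, 0.0406 and 0.05003 CPM in GFP-only cells. At 8 days the levels were 6.69, 43.9 and 13.7 CPM and 9.50, 12.2 and 14.3 CPM. The summed level of 10 ductal markers was 18674 to 19936 CPM in GFP-only, 12100.0 to 12990.0 CPM in WT Ngn3 and 10677 to 11051 CPM in 6S-A Ngn3 replicates at 2 days, and that of 6 endocrine markers 0.300 to 1.70, 184 to 942 and 431 to 991 CPM. Acinar, mesenchymal, endothelial and immune markers summed to at most 19.9 CPM in any replicate, over the 3 of 7, 4 of 5, 2 of 3 and 2 of 3 that passed the filter at 2 days and the 2, 1, 1 and 1 that passed at 8 days. The endothelial markers summed to 0.487 to 1.35 CPM in GFP-only, 1.32 to 6.23 in WT Ngn3 and 2.61 to 10.3 CPM in 6S-A Ngn3 replicates at 2 days, and the part of these markers in the results was not tested. Because each library is a pool of cells, fewer cycling cells and less replication RNA per cell cannot be told apart. Counts have no molecular identifiers, so the floors given for counts of 0 cover counting error only, while the intervals of fold changes come from the fit and include the spread between replicates.

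In GFP-only cells every one of the 39 genes was expressed. Per kilobase of exon, the highest levels were those of Gins4, a GINS subunit, at 37.2 ± 3.47 CPM per kb (SD, n = 3), Dut, which removes dUTP, at 29.6 ± 6.15, and Mcm3, a helicase subunit, at 24.0 ± 6.07. The lowest were Fen1, the flap nuclease, at 0.771 ± 0.192 CPM per kb, Gins3 at 1.59 ± 0.504 and Orc1, the large origin recognition subunit, at 1.70 ± 0.676. Within 1 SD Gins4 overlapped Dut, and Dut overlapped Mcm3 and the genes next below, Orc6 at 23.8 ± 4.95 and Mcm6 at 22.5 ± 5.28. Gins3 and Orc1 overlapped the next gene above, Mcm10 at 1.75 ± 0.793, so these neighbours in the order did not differ beyond their spread. Fen1 as counted lay below Gins3 beyond 1 SD, but its exons are largely shared with other genes. Its place at the bottom of the order is therefore not secure. Fen1 shares 84.2% of its exon bases with genes on the opposite strand and Gins2 67.3%, and reads that fall on exons of more than one gene are left uncounted unless strand tells them apart, so those levels may miss reads. Shares for Rfc2, Rfc4, Mcm7, Orc1 and Rfc5 were 10.7 to 15.1%, and Pcna and Tyms have named pseudogenes that could take or lend reads.

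The 39 genes together made up less of the RNA in cells with either form of Ngn3 than in the controls of the same day, on average over the replicates. At 2 days their summed level was 1363, 1955 and 1515 CPM in GFP-only replicates 1, 2 and 3, 1184, 948 and 862 CPM with WT Ngn3 and 884, 998 and 792 CPM with 6S-A Ngn3. No replicate with Ngn3 reached the lowest GFP-only replicate, and the WT and 6S-A replicates overlapped each other. Pools of the groups also differed in median depth, 4363666 reads for GFP only, 3460207 for WT and 2949342 for 6S-A Ngn3, and in the median mitochondrial share of reads, 7.77%, 9.74% and 8.83%, whose part in the result was not tested. The means were 1611 ± 307 CPM (SD, n = 3) for GFP only, 998 ± 167 for WT Ngn3, which is 61.9% of GFP only, and 891 ± 103 for 6S-A Ngn3, 55.3% of GFP only. GFP-only replicate 2 stood above the other 8 replicates in 33 of the 39 genes.

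**Figure D1:**
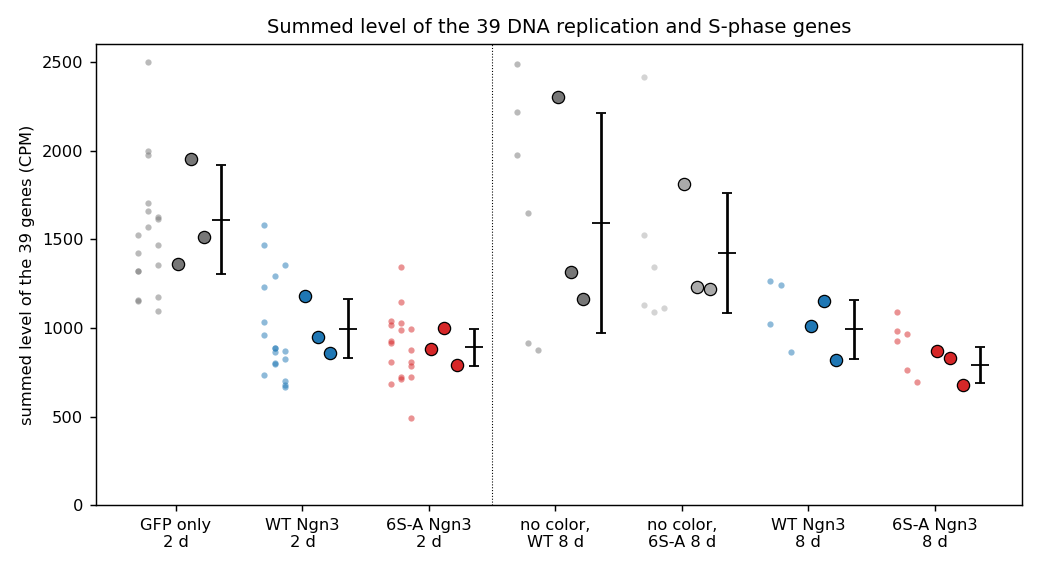
Summed level of the 39 genes by group. Small points are single pools of 50 cells in CPM without scaling, large outlined points are replicates in CPM after TMM scaling, and the black bar gives the mean and SD of 3 replicates; the dotted line separates 2 days from 8 days. At 2 days the GFP-only replicates lie at 1363, 1955 and 1515 CPM, above every WT and 6S-A Ngn3 replicate.

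At 2 days the question was whether cells with WT or with 6S-A Ngn3 differ from cells with GFP alone. With WT Ngn3, 20 of the 39 genes were lower and 0 higher at an adjusted p under 0.05 (edgeR quasi-likelihood test, Benjamini-Hochberg adjustment over 23844 genes), while 5.23% of all genes were called lower. All 39 log2 fold changes were negative, from -1.77 for Mcm10 to -0.12 for Rfc3, with a median of -0.86 where the median of all genes was 0.01. With 6S-A Ngn3, 27 were lower and 0 higher, beside 8.62% of all genes called lower, and the 39 negative values ran from -2.47 for Uhrf1 to -0.15 for Rfc3 with a median of -0.93, against 0.02 for all genes. Both comparisons use the same 3 GFP-only replicates, so they are not independent of each other. All 3 replicates lay below all 3 GFP-only replicates for 31 genes with WT Ngn3, against 13.0% of all genes, and for 33 with 6S-A Ngn3, against 16.2%. The genes whose replicates overlapped those of GFP only were Cdc6, Mcm6, Mcm7, Gins3, Gins4, Rfc3, Rpa1 and Rrm1 with WT Ngn3, and Mcm7, Gins1, Gins3, Rfc3, Rfc4 and Fen1 with 6S-A Ngn3. Without GFP-only replicate 2 the calls were 10 for the WT and 19 for the 6S-A form, and with only the first pool of each replicate they were 8 with WT Ngn3. The shares of all genes called lower in those fits were 3.59%, 6.79% and 2.13%.

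Each comparison was refitted 6 times with 1 replicate left out. With WT Ngn3 10 of the 20 genes were called in all 6 fits (Cdc45, Cdt1, Gins2, Mcm3, Pola1, Pold1, Pole, Rrm2, Tk1 and Uhrf1), and with 6S-A Ngn3 19 of the 27 (Cdc45, Cdt1, Dut, Gins2, Lig1, Mcm3, Mcm4, Orc6, Pcna, Pola1, Pola2, Pold1, Pole, Pole2, Prim1, Rfc5, Rrm2, Tk1 and Uhrf1). Each of the other called genes lost its call without GFP-only replicate 2, and some without a further replicate. Replicates of the same number deviated together, so a fit with that number as a term (the replicate block) was also made. It called 27 genes with WT and 30 with 6S-A Ngn3, where it called 8.53% and 12.1% of all genes lower, among them 19 of the 20 and 26 of the 27. The exceptions were Cdc6 for WT (-1.52, adjusted p = 0.0793) and Mcm5 for 6S-A Ngn3 (-1.23, adjusted p = 0.0665). The genes it called in addition were Gins1, Mcm2, Pold2, Pole2, Prim2, Rfc2, Rrm1 and Tyms for WT, and Orc1, Prim2, Rpa1 and Rrm1 for 6S-A Ngn3.

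**Figure D2:**
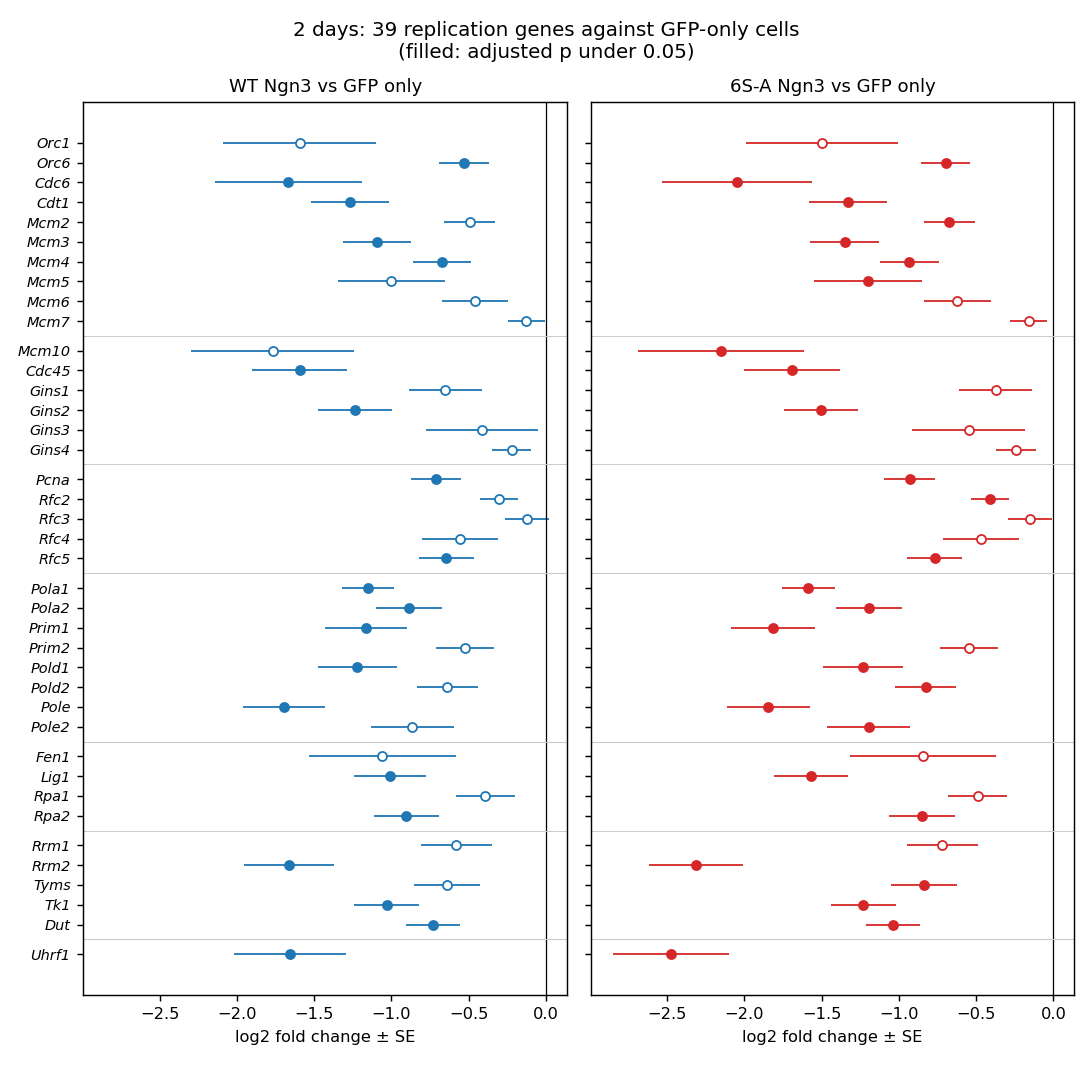
Log2 fold change of each of the 39 genes against GFP-only cells at 2 days, ordered by role, for WT Ngn3 (left) and 6S-A Ngn3 (right). Bars are standard errors and filled points have an adjusted p under 0.05; every point lies below 0, with 20 filled on the left and 27 on the right.

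Of the 10 licensing genes, 5 were lower with WT Ngn3 (Orc6, Cdc6, Cdt1, Mcm3 and Mcm4) and 7 with 6S-A Ngn3, beside 5.23% and 8.62% of all genes. Mcm2 and Mcm5 were the genes added with 6S-A Ngn3, and the medians were -0.84 and -1.07. Cdc6 (chr11:98907801-98923940), the loader that brings the helicase to origins, had 5.85, 21.6 and 12.6 CPM in the GFP-only replicates, 6.32, 2.68 and 3.55 CPM with WT Ngn3 and 2.69, 4.94 and 2.09 CPM with 6S-A Ngn3. GFP-only replicate 2 was the highest of the 9, and WT Ngn3 replicate 1 lay above the lowest GFP-only replicate. By edgeR, as for all adjusted p-values here unless another tool is named, its log2 fold change was -1.67 (SE 0.48, adjusted p = 0.0386) with WT Ngn3 and -2.05 (SE 0.49, adjusted p = 0.00990) with 6S-A Ngn3, which is 3.18-fold and 4.14-fold lower. The WT call was lost without GFP-only replicate 2 (-1.13, adjusted p = 0.194), GFP-only replicate 3 (adjusted p = 0.0755), WT replicate 2 (0.136) and WT replicate 3 (0.132), and the 6S-A call without GFP-only replicate 2 (-1.51, adjusted p = 0.0522). Cdt1 (chr8:122568015-122573554), the partner of Cdc6 in loading, had 21.1, 43.3 and 32.8 CPM in the GFP-only replicates, 17.1, 12.4 and 10.7 CPM with WT Ngn3 and 11.3, 14.1 and 13.3 CPM with 6S-A Ngn3, with no overlap between GFP only and either Ngn3 group. Its log2 fold change was -1.27 (SE 0.25, adjusted p = 0.00398) with WT and -1.33 (SE 0.25, adjusted p = 0.00182) with 6S-A Ngn3. Mcm3, a subunit of the helicase ring (chr1:20802968-20820312), had 67.2, 113 and 90.3 CPM in the GFP-only replicates, 54.7, 40.0 and 31.9 CPM with WT Ngn3 and 37.7, 40.4 and 28.1 CPM with 6S-A Ngn3, also without overlap, and log2 fold changes of -1.09 (SE 0.22, adjusted p = 0.00547) with WT Ngn3 and -1.35 (SE 0.22, adjusted p = 0.000832) with 6S-A Ngn3.

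The MCM subunits, which form one ring in the loaded helicase, had values spread over a wide range. Mcm2 (chr6:88883474-88898780) had 81.8, 108 and 80.2 CPM in the GFP-only replicates, 74.2, 63.4 and 54.6 CPM with WT Ngn3 and 58.7, 65.1 and 45.8 CPM with 6S-A Ngn3. It was lower without overlap in both groups, and its fold change was called with 6S-A Ngn3 at -0.67 (SE 0.17, adjusted p = 0.0107) but not with WT Ngn3 at -0.49 (SE 0.17, adjusted p = 0.0745), where the fit with the replicate block did call it (-0.49, adjusted p = 0.00633). The 6S-A call was lost without GFP-only replicate 2 (-0.53, adjusted p = 0.0617) and without 6S-A replicate 3 (-0.54, adjusted p = 0.0510), and the WT value was called without WT replicate 1 (-0.62, adjusted p = 0.0457). Mcm7 (chr5:138164583-138172422), another ring subunit, had 90.6, 93.4 and 79.3 CPM in the GFP-only replicates, 89.2, 80.3 and 71.5 CPM with WT Ngn3 and 77.5, 84.0 and 74.4 CPM with 6S-A Ngn3, so the 3 groups overlapped. Its log2 fold changes were -0.13 (SE 0.12, adjusted p = 0.624) and -0.16 (SE 0.12, adjusted p = 0.447), with 95% intervals of -0.39 to 0.13 for WT and -0.42 to 0.10 for 6S-A Ngn3. Mcm4, Mcm5 and Mcm6 were at -0.67, -1.001 and -0.46 with WT Ngn3 and -0.93, -1.20 and -0.62 with 6S-A Ngn3, and Mcm6 was not called in either. Orc1 had only 3.74, 5.60 and 8.41 CPM in GFP-only cells and log2 fold changes of -1.59 and -1.50, neither called at adjusted p = 0.0527 and 0.0500089, the latter just over the threshold, and with the replicate block the 6S-A value was -1.52, adjusted p = 0.0489.

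Of the 6 helicase activation genes, 2 were lower with WT Ngn3 (Cdc45 and Gins2) and 3 with 6S-A Ngn3 (Cdc45, Gins2 and Mcm10), with medians of -0.94 and -1.03. The shares of all genes called lower were 5.23% and 8.62%. Mcm10 (chr2:4989714-5012791), which is needed to open the helicase at origins, had 9.47, 20.5 and 10.5 CPM in the GFP-only replicates, 5.98, 1.67 and 4.13 CPM with WT Ngn3 and 3.23, 4.77 and 1.14 CPM with 6S-A Ngn3, without overlap. This was the most negative value of the 39 with WT Ngn3, -1.77 (SE 0.53, adjusted p = 0.0508), yet it was not called, and with 6S-A Ngn3 it was called at -2.15 (SE 0.54, adjusted p = 0.0151). Without GFP-only replicate 2 the 6S-A value was -1.72, adjusted p = 0.0627, and without WT replicate 1 the WT value was called at -2.23, adjusted p = 0.0365. The WT value was also called by DESeq2 (adjusted p = 0.00478), with edgeR's own filter (0.0395) and with scran size factors (0.0496), and the 6S-A call was lost with no filter (0.0681). Cdc45 (chr16:18780447-18811987), the helicase cofactor, had 11.7, 27.5 and 19.5 CPM in the GFP-only replicates, 8.52, 5.24 and 5.61 CPM with WT Ngn3 and 5.97, 7.19 and 5.03 CPM with 6S-A Ngn3, and fell 3.02-fold with WT and 3.23-fold with 6S-A Ngn3, at -1.59 (SE 0.31, adjusted p = 0.00335) and -1.69 (SE 0.31, adjusted p = 0.00141). Of the GINS complex, which joins the helicase at the fork, 1 subunit was called. Gins2 fell, at -1.23 (SE 0.24, adjusted p = 0.00345) and -1.50 (SE 0.24, adjusted p = 0.000534), with the reservation on its shared exons. Gins4 (chr8:23226616-23237659) had 53.6, 52.1 and 44.8 CPM in the GFP-only replicates, 48.4, 40.6 and 40.2 CPM with WT Ngn3 and 41.9, 43.3 and 42.1 CPM with 6S-A Ngn3, and its log2 fold changes of -0.22 and -0.24 had 95% intervals of -0.49 to 0.05 and -0.51 to 0.03. Gins1 and Gins3 had values of -0.65 and -0.41 with WT Ngn3 and -0.37 and -0.55 with 6S-A Ngn3, none of them called.

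Of the 5 clamp genes, 2 were lower with WT Ngn3 (Pcna and Rfc5) and 3 with 6S-A Ngn3 (Pcna, Rfc2 and Rfc5), beside 5.23% and 8.62% of all genes. The medians were -0.56 and -0.47. Pcna (chr2:132249162-132253314), the sliding clamp that tethers the polymerases, had 44.5, 66.5 and 49.0 CPM in the GFP-only replicates, 36.6, 31.6 and 29.4 CPM with WT Ngn3 and 24.9, 30.3 and 28.7 CPM with 6S-A Ngn3, and no replicate with Ngn3 reached a GFP-only replicate. The log2 fold change was -0.71 (SE 0.16, adjusted p = 0.0109) with WT Ngn3 and -0.93 (SE 0.17, adjusted p = 0.00117) with 6S-A Ngn3. The WT call was lost without GFP-only replicate 2 (-0.53, adjusted p = 0.0652) and with the first technical repeat only (-0.91, adjusted p = 0.0848). Rfc3 (chr5:151642756-151651242), a subunit of the clamp loader, had the smallest change of the 39 in both comparisons. Its levels were 42.8, 56.4 and 42.7 CPM in the GFP-only replicates, 43.1, 47.2 and 40.0 CPM with WT Ngn3 and 40.7, 47.2 and 40.1 CPM with 6S-A Ngn3, all overlapping, and its log2 fold changes were -0.12 (95% interval -0.43 to 0.18) and -0.15 (95% interval -0.46 to 0.16). Rfc4 was not called, at -0.56 and -0.47, so among the 4 loader subunits listed the values ranged from -0.12 to -0.64 with WT Ngn3.

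Of the 8 polymerase and primase genes, 5 were lower with WT Ngn3 (Pola1, Pola2, Prim1, Pold1 and Pole) and 7 with 6S-A Ngn3, which leaves only Prim2 not called there, with medians of -1.02 and -1.22. The shares of all genes called lower were 5.23% and 8.62%. All 8 lay below GFP only without overlap in both groups, against 13.0% and 16.2% of all genes. Pola1 (chrX:93304767-93632155), the catalytic subunit of polymerase alpha, had 28.3, 37.6 and 34.6 CPM in the GFP-only replicates, 17.1, 13.7 and 14.3 CPM with WT Ngn3 and 10.9, 11.9 and 10.7 CPM with 6S-A Ngn3. The 3 groups did not overlap, and Pola1 had the lowest adjusted p of the 39 in both comparisons, with log2 fold changes of -1.15 (SE 0.17, adjusted p = 0.000433) and -1.59 (SE 0.17, adjusted p = 1.89e-05). Pole (chr5:110286306-110337474), the catalytic subunit of the leading-strand polymerase epsilon, had 19.0, 25.6 and 27.7 CPM in the GFP-only replicates, 7.93, 7.86 and 6.56 CPM with WT Ngn3 and 4.75, 9.77 and 5.64 CPM with 6S-A Ngn3. Its log2 fold change was -1.69 (SE 0.27, adjusted p = 0.000706) with WT Ngn3 and -1.85 (SE 0.27, adjusted p = 0.000232) with 6S-A Ngn3, the most negative in this group, and with the first technical repeat only the WT value was -1.54, adjusted p = 0.0924. Prim2 (chr1:33453810-33669795), the large primase subunit, had 18.8, 27.4 and 21.4 CPM in the GFP-only replicates, 15.7, 13.6 and 17.7 CPM with WT Ngn3 and 14.5, 15.9 and 15.9 CPM with 6S-A Ngn3. Its values of -0.52 (SE 0.19, adjusted p = 0.0920) and -0.55 (SE 0.19, adjusted p = 0.0574) did not pass, although with the replicate block they were -0.51, adjusted p = 0.0475 and -0.54, adjusted p = 0.0280, and without GFP-only replicate 1 the 6S-A value was -0.67, adjusted p = 0.0385. DESeq2 called both (adjusted p = 0.0406 and 0.0241). The 6S-A value was also called with edgeR's own filter (adjusted p = 0.0465) and with near-repeat pools left out (0.0443). Its partner Prim1, the catalytic primase subunit, had 19.1, 33.7 and 17.3 CPM in the GFP-only replicates, 12.3, 8.65 and 10.3 CPM with WT Ngn3 and 5.92, 8.18 and 5.88 CPM with 6S-A Ngn3. It fell 2.24-fold with WT and 3.51-fold with 6S-A Ngn3. Pold1 (chr7:44532746-44548849), the catalytic subunit of polymerase delta, had 28.5, 27.8 and 27.5 CPM in the GFP-only replicates, 18.1, 9.98 and 7.73 CPM with WT Ngn3 and 13.3, 10.4 and 11.9 CPM with 6S-A Ngn3, and fell 2.33-fold and 2.35-fold. Pola2, the second subunit of polymerase alpha, fell in both comparisons, at -0.88 and -1.19. Pold2 and Pole2, accessory subunits of the delta and epsilon enzymes, were called with 6S-A Ngn3 at -0.82 and -1.20, and with WT Ngn3 had -0.64 and -0.86, not called.

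Of the 4 genes for strand processing and single-strand binding, Lig1 and Rpa2 were lower in both comparisons and Fen1 and Rpa1 were called in neither. The shares of all genes called lower were 5.23% with WT and 8.62% with 6S-A Ngn3. Lig1 (chr7:13277283-13311433), the ligase of Okazaki fragments, had 21.5, 47.0 and 35.1 CPM in the GFP-only replicates, 19.1, 16.4 and 15.9 CPM with WT Ngn3 and 10.8, 12.8 and 11.3 CPM with 6S-A Ngn3, with log2 fold changes of -1.01 (SE 0.23, adjusted p = 0.0111) and -1.57 (SE 0.24, adjusted p = 0.000343). Fen1 (chr19:10199132-10204169), the nuclease that trims the flaps before ligation, had 1.42, 1.83 and 2.35 CPM in the GFP-only replicates, 1.19, 0.948 and 0.529 CPM with WT Ngn3 and 0.929, 1.43 and 0.759 CPM with 6S-A Ngn3, at the bottom of the range of the 39 genes. The values of -1.06 (SE 0.47, adjusted p = 0.198) and -0.84 (SE 0.47, adjusted p = 0.269) rested on few reads and on a gene model largely shared with its neighbours. Rpa1 (chr11:75298166-75348324) and Rpa2 (chr4:132768332-132778752) are subunits of the same single-strand binding complex. Rpa1 had 55.1, 69.1 and 53.6 CPM in the GFP-only replicates, 59.2, 39.4 and 36.8 CPM with WT Ngn3 and 50.9, 40.9 and 34.7 CPM with 6S-A Ngn3, and WT Ngn3 replicate 1 lay among the GFP-only replicates. Rpa2 had 22.6, 31.9 and 20.4 CPM in the GFP-only replicates, 15.3, 13.4 and 11.3 CPM with WT Ngn3 and 11.5, 15.1 and 15.0 CPM with 6S-A Ngn3, with no overlap. The log2 fold changes were -0.39 (SE 0.19, adjusted p = 0.249) and -0.49 (SE 0.19, adjusted p = 0.102) for Rpa1, and -0.90 (SE 0.21, adjusted p = 0.0115) and -0.85 (SE 0.21, adjusted p = 0.0112) for Rpa2. For Rpa1 the 6S-A value was -0.51, adjusted p = 0.0172 with the replicate block, and the WT value -0.65, adjusted p = 0.0358 without WT replicate 1.

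Of the 5 nucleotide supply genes, 3 were lower with WT Ngn3 (Rrm2, Tk1 and Dut) and 4 with 6S-A Ngn3 (Tyms as well), beside 5.23% and 8.62% of all genes. The medians were -0.73 and -1.04. Rrm1 (chr7:102441695-102469771) and Rrm2 (chr12:24708241-24714146) are the subunits of ribonucleotide reductase, of which Rrm2 is the one made in S phase. Rrm2 had 38.5, 64.3 and 47.5 CPM in the GFP-only replicates, 23.8, 11.4 and 12.1 CPM with WT Ngn3 and 9.34, 12.9 and 7.97 CPM with 6S-A Ngn3. Every replicate with Ngn3 was below every GFP-only replicate, and the log2 fold change was -1.66 (SE 0.29, adjusted p = 0.00230) with WT Ngn3 and -2.31 (SE 0.30, adjusted p = 0.000146) with 6S-A Ngn3. Rrm1 had 85.9, 108 and 76.2 CPM in the GFP-only replicates, 83.6, 51.9 and 44.9 CPM with WT Ngn3 and 65.3, 57.2 and 41.7 CPM with 6S-A Ngn3, with WT Ngn3 replicate 1 between the GFP-only replicates. The Rrm1 values of -0.58 (SE 0.23, adjusted p = 0.147) and -0.72 (SE 0.23, adjusted p = 0.0506) were not called, though with the replicate block they were -0.62, adjusted p = 0.0147 and -0.74, adjusted p = 0.00349. They were also called without WT replicate 1 for WT (-0.91, adjusted p = 0.00942), and without 6S-A replicate 1 (0.0424) or GFP-only replicate 3 (0.0494, both adjusted p) for 6S-A. Tk1, the salvage kinase for thymidine, fell 2.04-fold with WT and 2.35-fold with 6S-A Ngn3, and Dut fell 1.66-fold and 2.05-fold. Tyms, which makes thymidylate, had -0.64 with WT Ngn3, not called at adjusted p = 0.0702, and -0.84 (SE 0.21, adjusted p = 0.0129) with 6S-A Ngn3.

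Uhrf1 (chr17:56303321-56323486), which brings the maintenance methylase to newly copied DNA, had 25.5, 45.4 and 32.0 CPM in the GFP-only replicates, 13.6, 11.4 and 7.57 CPM with WT Ngn3 and 6.41, 9.27 and 2.89 CPM with 6S-A Ngn3. Both Ngn3 groups lay below GFP only without overlap, and WT replicate 3 lay between 6S-A replicates. Its log2 fold change was -1.66 (SE 0.36, adjusted p = 0.0101) with WT Ngn3 and -2.47 (SE 0.38, adjusted p = 0.000583) with 6S-A Ngn3, which is 3.15-fold and 5.56-fold lower and, for 6S-A, the most negative value of the 39.

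**Figure D3:**
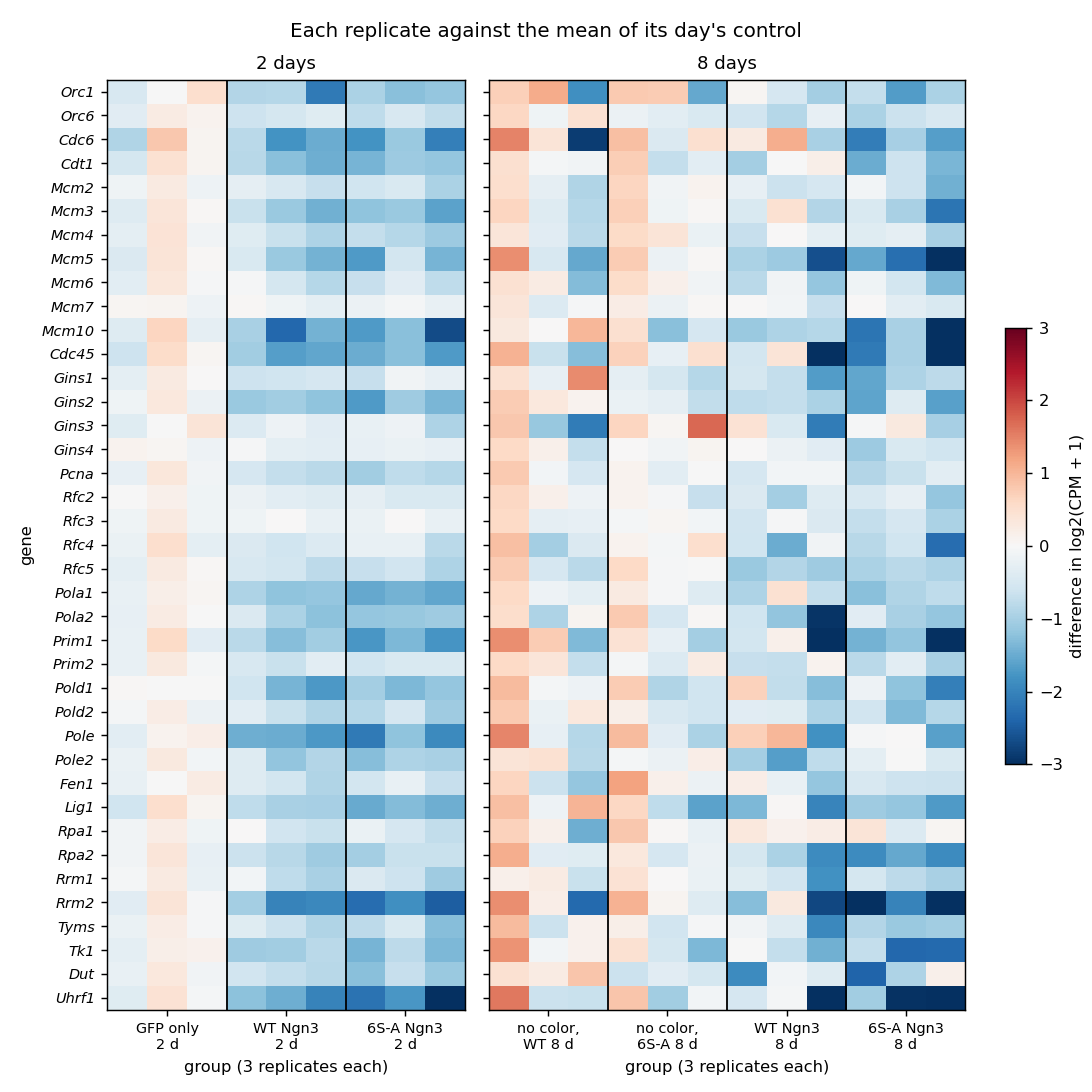
Each gene (rows, ordered by role) in each replicate (columns, 3 per group), as the difference in log2(CPM + 1) from the mean of that day's control, with colours saturating at -3 and 3. At 2 days (left) GFP-only replicate 2 is the highest replicate in 33 of 39 genes, and at 8 days (right) replicate 1 of the no-color WT control is the highest in 23 of 39.

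Genes with and without an E2F word in the promoter were both among the calls. With WT Ngn3, 7 of 14 genes with a word and 10 of 18 without were lower, and with 6S-A Ngn3 9 of 14 and 14 of 18, beside the 5.23% and 8.62% of all genes. The medians were -1.05 against -0.72 with WT Ngn3 and -1.28 against -0.85 with 6S-A Ngn3. These counts are descriptions and were not tested.

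The central comparison of the study sets 6S-A Ngn3 against WT Ngn3. At 2 days 0 of the 39 genes were called by edgeR's quasi-likelihood test and 0 by DESeq2, where 0.0126% of all genes were called by edgeR and 0.424% by DESeq2. An unadjusted p under 0.05 was seen for 5 of the 39 genes and 5.79% of all genes. The log2 difference, 6S-A minus WT, was negative for 34 of 39 genes, with a median of -0.17 against 0.00 for all genes. With one replicate left out the median ran from -0.29 (without 6S-A replicate 2) to -0.03 (without WT replicate 1). The 5 genes were all lower with 6S-A Ngn3, at -0.44 for Pola1, -0.65 for Prim1, -0.56 for Lig1, -0.65 for Rrm2 and -0.82 for Uhrf1, and none had an adjusted p below 0.799. For Pola1, Prim1 and Lig1 the 3 replicates of each form did not overlap, with 6S-A lower, as was the case for 5.57% of all genes. The Pola1 difference had a 95% interval of -0.81 to -0.07, that of Uhrf1 -1.62 to -0.01 and that of Mcm7 -0.29 to 0.23. For 31 of the 39 genes the whole interval lay within a 2-fold difference in either direction, and over all 39 the bounds ran from -1.62 to 1.25. The Neurog3 level itself differed between the forms by a log2 of 0.05 (SE 0.33).

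Lists of genes that work beside the 39 also held lower calls, where 5.23% and 8.62% of all genes were called lower with WT and 6S-A Ngn3. Of 36 other fork and licensing genes, 12 were lower for the WT and 16 for the 6S-A form, with medians of -0.50 and -0.69. The 3 largest falls with WT Ngn3 were those of Recql4, a factor in helicase activation, at -2.50, Asf1b, a histone chaperone of the fork, at -1.50, and Gmnn (geminin), the inhibitor of Cdt1, at -1.37. With 6S-A Ngn3 they were those of Gmnn at -2.06, Ticrr, which helps load Cdc45, at -1.98, and Clspn (claspin), a fork checkpoint protein, at -1.92. The 1 gene of this list called higher, Rnaseh2b with 6S-A Ngn3 at 0.58, is named here after its value was seen. Of 19 S-phase repair and checkpoint genes, 9 and 13 were lower, with medians of -0.73 and -0.88, led by the nuclease Exo1 at -1.46 and -2.32. Of 16 other nucleotide supply genes, 4 and 6 were lower, with medians of -0.30 and -0.37. Shmt1, which supplies one-carbon units for thymidylate, was at -1.17 with WT and -1.18 with 6S-A Ngn3.

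Of the 13 genes of the E2F and Rb family, 3 were lower with WT Ngn3 (E2f8, Rbl1 and E2f3), while with 6S-A Ngn3 4 were lower (E2f8, Rbl1, E2f3 and E2f5, the last 2 named after their values were seen) and Rb1, the retinoblastoma gene, was higher. E2f8, an E2F repressor that is itself made in S phase, was at -1.92 (SE 0.42, adjusted p = 0.00729) and -2.44 (SE 0.43, adjusted p = 0.00104). Rb1 was at 0.65 (SE 0.18, adjusted p = 0.0221) with 6S-A Ngn3. Of 17 mitosis markers, 14 and 16 were lower, with medians of -1.33 and -1.83. For this list and the E2F and Rb family alike, the shares of all genes called lower were 5.23% and 8.62%. The mitosis markers summed to 752 to 836 CPM in GFP-only replicates, 247 to 444 with WT Ngn3 and 203 to 349.5 with 6S-A Ngn3, and their part in the lower replication genes was not tested. No difference between lists was tested.

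**Figure D4:**
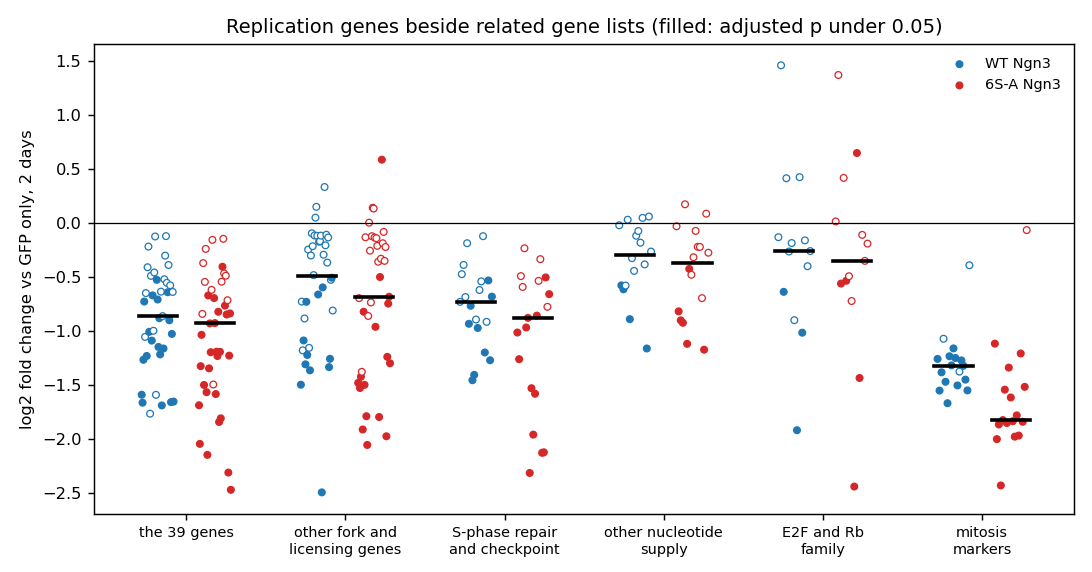
Log2 fold change against GFP-only cells at 2 days of each gene in the 39-gene list and in 5 related lists, WT Ngn3 in blue and 6S-A Ngn3 in red, with filled points at an adjusted p under 0.05 and black lines at the medians. The medians of the 39 genes are -0.86 and -0.93, those of the mitosis markers -1.33 and -1.83, and those of the E2F and Rb family -0.26 and -0.35.

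Single pools gave a finer view, since each replicate at 2 days holds 6 pools of 50 cells. The summed level of the 39 genes, in CPM of the unscaled reads on genes (raw CPM), ran from 1098 to 2502 with a median of 1496 over 18 GFP-only pools, from 667 to 1583 with a median of 879.8 over 18 WT Ngn3 pools, and from 490.4 to 1347 with a median of 894 over 18 6S-A Ngn3 pools. Of the WT pools 13 lay below the lowest GFP-only pool and 17 below the GFP-only median, and of the 6S-A pools 16 and 18. The pools of one replicate were treated as its technical repeats, so these are counts and not tests. Within a replicate the highest pool was 1.32 to 1.59 times the lowest in GFP-only cells, 1.62 to 2.14 times with WT Ngn3 and 1.52 to 2.03 times with 6S-A Ngn3. All 6 pools of GFP-only replicate 2 were at or above 1571, so that replicate was high in every pool rather than in one. Most of the genes were seen in every pool at 2 days. Orc1 had a read in 18 of 18 GFP-only, 14 of 18 WT and 14 of 18 6S-A pools, and Mcm10 in 18, 16 and 15. Among pairs of technical repeats, 6 of 149 differed by little more than counting noise. They were always repeats 2 and 3 of replicates 2 and 3, in each group of 2 days, and the pool counts above include both pools of each pair. Leaving out 1 pool of each such pair gave 21 lower genes for the WT and 30 for the 6S-A form. The shares of all genes called lower there were 5.47% and 9.02%.

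After 8 days the summed level was 2305, 1315 and 1164 CPM in replicates 1, 2 and 3 of the no-color WT control, 1816, 1233 and 1223 CPM in the no-color 6S-A control, 1012, 1151 and 818 CPM with WT Ngn3 and 873, 831 and 679.5 CPM with 6S-A Ngn3. After TMM scaling every replicate with Ngn3 was below every no-color replicate, and the 2 forms of Ngn3 overlapped each other. Without that scaling, an alternative chosen after seeing the data, replicate 3 of the no-color WT control stood at 877 CPM, below WT Ngn3 replicates 1 and 2 (1148 and 1244 CPM) and 6S-A Ngn3 replicate 1 (989 CPM), so the separation depended on the scaling. As a share of the mean of both controls, WT Ngn3 was at 65.8% and 6S-A Ngn3 at 52.6%, with means of 993 ± 167 and 794 ± 102 CPM (SD, n = 3), and without the scaling at 76.6% and 60.1%. Replicate 1 of the no-color WT control was the highest of all 12 replicates in 23 of the 39 genes, and replicate 3 of the same control had the fewest reads, 17.9% mitochondrial reads, the most of any library, and a TMM factor of 0.753. Mitosis markers summed to 199 to 720.2 and 86.4 to 664 CPM in the WT and 6S-A controls, against 111 to 235 with WT and 29.8 to 302 with 6S-A Ngn3. Ductal markers summed to 15955 to 36532 and 30909 to 35822 CPM in the controls, 13824 to 16635 with WT and 9675 to 24672 with 6S-A Ngn3. The 6 endocrine markers summed to 1.90 to 3.64 and 0.478 to 5.91 CPM in the controls, 16.1 to 1653 with WT and 107 to 1839 with 6S-A Ngn3. The part of these markers in the result was not tested.

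Gene by gene, few differences at 8 days passed the test. With WT Ngn3 against both no-color controls 0 of 39 genes were called by edgeR's quasi-likelihood test and 2 by DESeq2 (Rfc5 and Pole2), beside 0.173% of all genes called lower by edgeR and 1.03% by DESeq2. An unadjusted p under 0.05 was seen for 5 (Rfc5, Pola2, Pole2, Rpa2 and Rrm1, all lower), near the 10.5% of all genes. The log2 fold change was negative for 37 of 39 genes, from -1.74 for Mcm5 to 0.09 for Pole, with a median of -0.74 against 0.01 for all genes. With 6S-A Ngn3 1 gene was called lower, Rpa2, beside 0.340% of all genes, and 22 had an unadjusted p under 0.05, beside 12.1% of all genes. All 39 log2 fold changes were negative, from -4.04 for Rrm2 to -0.12 for Rpa1, with a median of -1.07 against 0.03 for all genes. With the replicate block, 7 genes were called with 6S-A Ngn3 (Rpa2, Mcm3, Mcm5, Prim1, Rrm2, Tk1 and Uhrf1), and DESeq2 called 7 (Rpa2, Mcm5, Mcm10, Cdc6, Gins2, Rrm2 and Tk1), beside 1.18% and 1.79% of all genes called lower in those fits. With the passage 5 replicates left out 0 were called, beside 0.115% of all genes called lower, with a median of -1.10. All 3 replicates lay below all 6 control replicates for 2 genes with WT Ngn3 (Rfc5 and Rpa2), against 2.17% of all genes, and for 7 with 6S-A Ngn3 (Orc6, Mcm5, Rfc3, Pola1, Rpa2, Tyms and Uhrf1), against 2.23%. Uhrf1 separated by little, with 7.05 CPM in 6S-A replicate 1 against 7.14 CPM in no-color 6S-A replicate 2. Scaled over both days, Mcm5 had 12.65 CPM in 6S-A replicate 1 against 12.72 CPM in no-color WT replicate 3. These separations were not checked without TMM scaling.

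**Figure D5:**
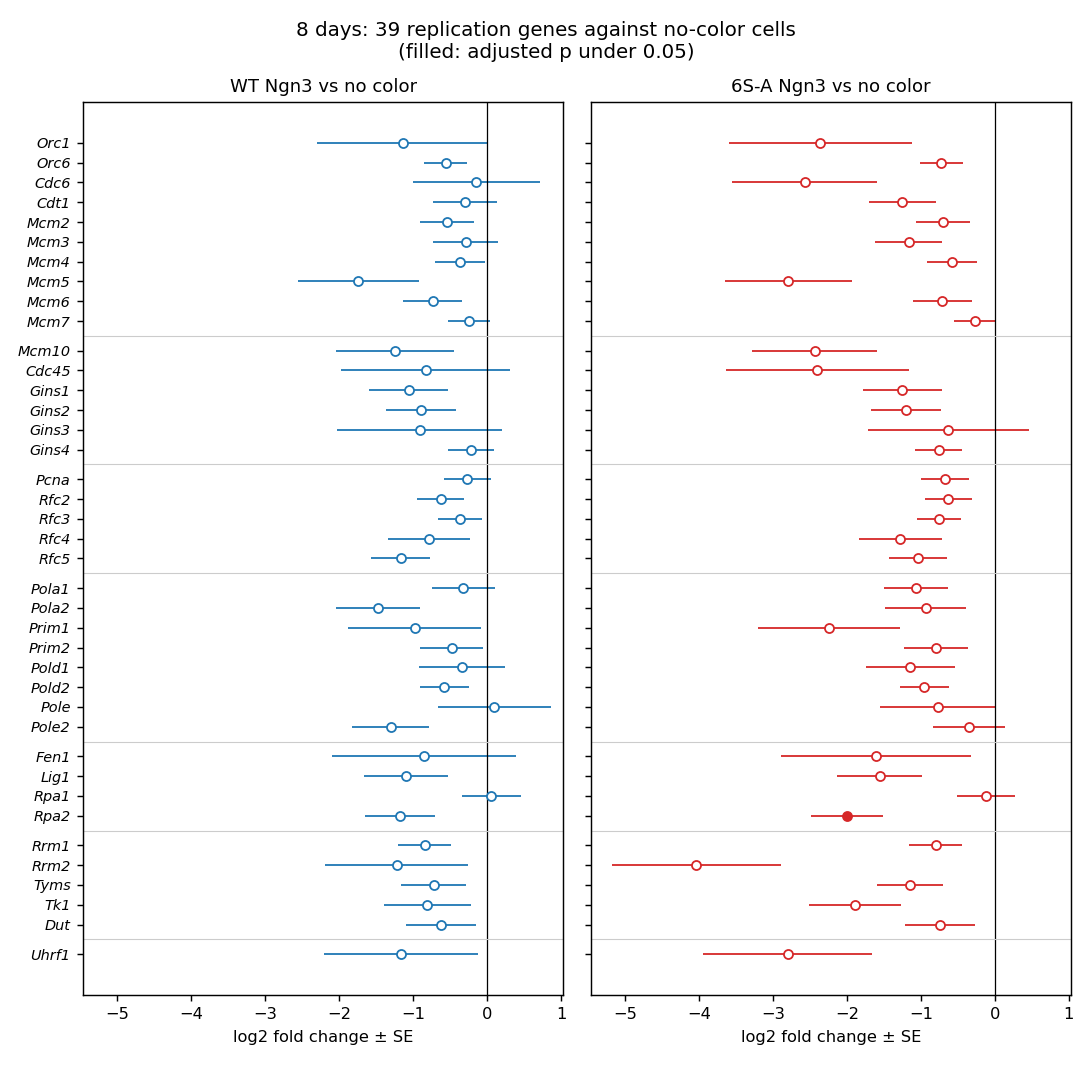
Log2 fold change of each of the 39 genes against the averaged no-color controls of day 8, ordered by role, for WT Ngn3 (left) and 6S-A Ngn3 (right). Bars are standard errors; 0 points are filled for WT Ngn3 and 1, Rpa2, for 6S-A Ngn3, with medians of -0.74 and -1.07.

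Rpa2, named here for its call and after its values were seen, had 64.1, 23.0 and 22.7 CPM in the no-color WT control, 36.8, 20.4 and 26.1 CPM in the no-color 6S-A control, 20.1, 14.9 and 7.21 CPM with WT Ngn3 and 7.23, 9.54 and 7.29 CPM with 6S-A Ngn3. Both Ngn3 groups lay below all 6 control replicates, and the log2 fold changes were -1.18 (SE 0.47, adjusted p = 0.356) with WT and -1.996 (SE 0.49, adjusted p = 0.0461) with 6S-A Ngn3. The 6S-A value was -1.88, adjusted p = 0.0113 with the replicate block, and the call was lost when any one of the 6S-A replicates, the no-color 6S-A replicates or replicate 1 of the no-color WT control was left out, with values from -1.68 (adjusted p = 0.110, without the latter) to -2.15 (adjusted p = 0.0603, without no-color 6S-A replicate 2). Its partner Rpa1 had 69.9, 48.5 and 15.0 CPM in the no-color WT control, 76.5, 44.5 and 37.0 CPM in the no-color 6S-A control, 54.2, 47.3 and 50.3 CPM with WT Ngn3 and 57.0, 32.4 and 44.7 CPM with 6S-A Ngn3, with overlap throughout, and 0.05 and -0.12. Rpa1 was not called on either day. Rrm2, the S-phase subunit of ribonucleotide reductase, had 55.4, 23.8 and 3.32 CPM in the no-color WT control, 43.7, 21.8 and 15.6 CPM in the no-color 6S-A control, 7.95, 25.6 and 2.28 CPM with WT Ngn3 and 0.524, 4.38 and 0.143 CPM with 6S-A Ngn3. The 6S-A replicates included 0.143 CPM, below the floor of 3 reads in that library, and the control replicates spanned a wide range, and the log2 fold change of -4.04 (SE 1.14, adjusted p = 0.115) was not called, while with the replicate block it was -4.53, adjusted p = 0.00446.

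Uhrf1 had 49.2, 9.70 and 9.42 CPM in the no-color WT control, 28.8, 7.14 and 14.7 CPM in the no-color 6S-A control, 10.7, 14.9 and 0.948 CPM with WT Ngn3 and 7.05, 1.12 and 0 CPM with 6S-A Ngn3, with log2 fold changes of -1.17 (SE 1.05, adjusted p = 0.763) and -2.80 (SE 1.14, adjusted p = 0.324). The 6S-A replicates were all below the controls, and replicate 3 had 0 reads, which allows up to 0.429 CPM. Cdc6 had 19.2, 8.43 and 0 CPM in the no-color WT control, 12.4, 4.30 and 8.95 CPM in the no-color 6S-A control, 7.59, 14.3 and 2.66 CPM with WT Ngn3 and 0.699, 2.58 and 1.29 CPM with 6S-A Ngn3, and -0.15 (SE 0.86, adjusted p = 0.979) and -2.57 (SE 0.98, adjusted p = 0.263). In the shallow replicate 3 of the no-color WT control Cdc6 had 0 reads, which allows up to 1.66 CPM, and Orc1, Gins3 and Fen1 had 0 reads there too. Cdc45 had 0 reads in replicate 3 of both Ngn3 groups, and Gins3 and Fen1 in replicate 3 of WT Ngn3. Mcm10 had 10.5, 8.43 and 17.7 CPM in the no-color WT control, 12.05, 2.93 and 5.61 CPM in the no-color 6S-A control, 3.34, 3.96 and 4.17 CPM with WT Ngn3 and 1.05, 3.82 and 0.143 CPM with 6S-A Ngn3, with values of -1.25 (SE 0.80, adjusted p = 0.625) and -2.44 (SE 0.85, adjusted p = 0.202). Pcna had 110.0, 59.8 and 44.3 CPM in the no-color WT control, 67.9, 50.1 and 62.9 CPM in the no-color 6S-A control, 44.4, 59.2 and 59.9 CPM with WT Ngn3 and 33.6, 39.5 and 50.3 CPM with 6S-A Ngn3, with -0.27 and -0.68, and Mcm7 -0.24 and -0.27, none called. Pole, whose fall at 2 days was among the largest, had 23.5, 6.43 and 3.88 CPM in the no-color WT control, 16.0, 5.94 and 3.58 CPM in the no-color 6S-A control, 13.6, 16.8 and 1.52 CPM with WT Ngn3 and 7.69, 7.86 and 1.86 CPM with 6S-A Ngn3. The groups overlapped, and the values of 0.09 (SE 0.76, adjusted p = 0.987) and -0.77 (SE 0.79, adjusted p = 0.802) were not called. Mcm2, Gins4, Rfc3, Prim2, Fen1 and Rrm1 had log2 fold changes between -0.22 and -0.86 with WT Ngn3 and between -0.70 and -1.61 with 6S-A Ngn3, none called. Those of Cdt1, Mcm3, Cdc45, Pola1, Prim1, Pold1 and Lig1 lay between -0.29 and -1.10 with WT Ngn3. With 6S-A Ngn3 they lay between -1.07 and -2.40, none called in the main fit, although the replicate block called Mcm3 and Prim1.

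By pool, the summed level at 8 days was 876 to 2488 raw CPM in 6 no-color WT pools, 1091 to 2417 in 6 no-color 6S-A pools, 868 to 1264 in 4 WT Ngn3 pools and 696 to 1089.8 in 6 6S-A Ngn3 pools. All 4 WT and all 6 6S-A pools lay below the median of the 12 control pools, and 1 and 2 below the lowest control pool. One more WT Ngn3 pool had failed the library limits and is not counted.

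Between the forms at 8 days, 0 of the 39 genes were called by edgeR and 0 by DESeq2, as were 0% of all genes by either tool. An unadjusted p under 0.05 was seen for 2 genes, Cdc6 at -2.42 and Rrm2 at -2.81, 6S-A minus WT, beside 2.11% of all genes. The difference was negative for 32 of 39 genes with a median of -0.42, against 0.02 for all genes. Only 5 of the 39 intervals lay within a 2-fold difference, so a difference of that size could not be resolved for most of the genes. The 2 no-color controls also gave 0 calls by edgeR and 0 by DESeq2, where 0% of all genes were called by edgeR and 0.193% by DESeq2, and 1 gene, Gins1, had an unadjusted p under 0.05, beside 8.37% of all genes. Their difference, no-color 6S-A minus no-color WT, was negative for 26 of 39 genes with a median of -0.15. Left-out replicates moved that median from -0.54 (without replicate 3 of the no-color WT control) to 0.18 (without its replicate 1).

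Across days, the 8-day no-color controls against the 2-day GFP-only control gave 0 calls among the 39 genes by edgeR and 2 by DESeq2, beside 1.35% of all genes by edgeR and 5.80% by DESeq2. An unadjusted p under 0.05 was seen for 2 genes, Rfc3 at 0.59 and Pold2 at 0.88, higher at 8 days, beside 14.8% of all genes. The values were negative for 15 of 39 genes with a median of 0.04, against -0.07 for all genes. The change of the WT effect from 2 to 8 days, each taken against its own day's control, was called for 0 genes by edgeR and 0 by DESeq2, beside 0% of all genes by edgeR and 0.301% by DESeq2, with 0 unadjusted p under 0.05 (all genes, 5.23%), 18 negative values and a median of 0.05. That of the 6S-A effect was called for 0 genes by edgeR and 0 by DESeq2, beside 0.0102% of all genes by edgeR and 0.311% by DESeq2, with 1 unadjusted p under 0.05 (Rpa2, and 5.64% of all genes), 27 negative values and a median of -0.14. The intervals ran from -3.19 to 3.76 for WT and from -4.18 to 3.01 for 6S-A Ngn3, so changes of several fold between days could not be resolved for some of the genes. The signs of these medians turned with single replicates. With one replicate left out, that of the controls ran from -0.21 (without replicate 1 of the no-color WT control) to 0.24 (without GFP-only replicate 2), and with the replicate block it was -0.02. That of the WT effect ran from -0.09 (without GFP-only replicate 2) to 0.27 (without 8-day WT Ngn3 replicate 3), and that of the 6S-A effect from -0.31 (without GFP-only replicate 2) to 0.07 (without replicate 1 of the no-color WT control). The calls at 2 days and their near absence at 8 days are therefore not shown to differ.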

How the data were processed

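Pools of 50 sorted cells were sequenced by a Smart-seq2-type protocol, and the authors deposited HTSeq read counts per gene for 77 libraries. The submitters' processing notes name GSNAP, HTSeq (0.5.3p3) and mm10. The strand setting of the counting is not given in the sources used here. Lines that name no gene held 22.5% (not aligned), 14.4% (no feature) and 8.06% (ambiguous) of reads and stayed out. Symbols and exon lengths came from GENCODE M21 (GRCm38), and 45143 of 46078 identifiers had a symbol.

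Libraries needed over 10000 detected genes, under 30% spike-in reads and over 1000000 gene reads, and 76 of 77 passed. Technical repeats were summed to 3 replicates per group, and genes with a read in at least 5 retained libraries of the time point were kept. Counts were scaled by TMM and tested with edgeR 4.0.16 in R 4.3.3 (quasi-likelihood, robust), each day in one model over all its groups, with Benjamini-Hochberg adjustment over all genes and a threshold of 0.05. CPM values are after TMM, except those of single pools. The 8-day Ngn3 groups were compared with the averaged 2 no-color controls. Replicates with the same number, which the labels give, deviated from their group means together (r from 0.109 to 0.467 over 9 pairs at 2 days and from 0.116 to 0.608 over 18 pairs at 8 days). The main model held group means only and left this pairing out. The fit with the number as a block took the pairing in and is given as an alternative. Other alternatives were DESeq2 1.42.0 as test or for size factors, scran 1.30.0 size factors, edgeR's own filter, no filter, no library limits, the first technical repeat only, each form's own no-color control and leaving out each replicate. Leaving out near-repeat pools and the passage 5 libraries, and summed levels without TMM scaling, were chosen after seeing the data. The scripts were tested on simulated data for WT Ngn3 against its control. There 10.6% of the calls at 2 days and 10.7% at 8 days were false. Changes of log2 size 1 were recovered for 72% of the changed genes at 2 days and 7% at 8 days.

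All 39 genes could be named. Every replicate's value was to be given for the genes with the largest and smallest fold change with WT Ngn3 at 2 days in each role, plus Pcna and Mcm2. Of a related list at most the 3 largest changes past the threshold were named per comparison. One gene of the related lists is not reported here by name. Values of further genes (Cdt1, Mcm3, Cdc45, Pola1, Prim1, Pold1, Lig1 and Rpa2) and any exception stated in the text were chosen after the values were seen. The genes and the related lists were chosen with earlier results of these data known.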

Additional observations from a re-analysis of the deposited data

Results flagged for a closer look

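Single pools were checked within each group of 4 to 10 pools for a highest or lowest pool far from its neighbours (Dixon's ratio at the 95% level), which chance alone meets in about 1 in 20 groups. The summed level of the 39 genes in the highest pool of WT Ngn3 replicate 2 at 2 days, 1292.1 raw CPM, stood apart from the other 5, whose median with it was 877. The highest pool of WT Ngn3 replicate 3 at 2 days, 1355.8 raw CPM, stood apart in the same way beside a median of 765. Among the 6 pools of the no-color 6S-A control at 8 days the highest, 2417.1 raw CPM, lay above a median of 1238. No cause of these values was tested.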

How the results depend on the processing

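At 2 days the lower calls ranged with WT Ngn3 from 8 (first technical repeat only) to 29 (DESeq2, 6.81% of all genes), and with one replicate left out from 10 (without GFP-only replicate 2) to 28 (without WT Ngn3 replicate 1, 4.51% of all genes). With 6S-A Ngn3 they ranged from 23 (first technical repeat only, 3.59%) to 31 (DESeq2, 10.1%), and from 19 (without GFP-only replicate 2) to 29 (without GFP-only replicate 1, 7.19%) with one replicate left out. Both medians stayed below 0 throughout these fits. With the replicate block, the lower genes at 2 days were 27 (WT) and 30 (6S-A), and those at 8 days 0 and 7. The shares of all genes lower were 8.53% and 12.1% at 2 days and 0.619% and 1.18% at 8 days. Against the no-color controls at 8 days, WT Ngn3 gave 2 calls with DESeq2 and 1 with no filter (0.920% of all genes lower). For 6S-A Ngn3 DESeq2 gave 7 and no filter 9 (1.40%). The first technical repeat (0.432% of all genes lower), its own control (0.168%) and the removal of passage 5 libraries (0.115%) gave 0 each. With one replicate left out it gave 0 to 1, beside 0.152 to 0.376% of all genes lower. Between the forms at 8 days no filter gave 1 (0.0296% in either direction). For the no-color controls against GFP only, DESeq2 gave 2 (5.80%), the block 2 (8.14%) and leaving out one replicate 0 to 1 (0.0357 to 3.80%). Rfc3 with WT Ngn3 ran from -0.213 to 0.0128, its value without GFP-only replicate 2. The causes of these changes were not tested. The shallowest 8-day replicate had 2396221 reads, and depth was not separated from the spread between 8-day replicates.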
